A study of Mus musculus with 40 samples.

Results

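Cathepsins are the proteases of the lysosome, and 9 of them (Ctsa, Ctsb, Ctsc, Ctsd, Ctsh, Ctsk, Ctsl, Ctss and Ctsz) were followed here through the primary tumors of 2 mouse models of triple-negative breast cancer (TNBC). Members were taken by gene symbol, and all 9 were present among the 14318 genes of the expression table, of which 14259 carried a symbol. The tumors came from WT female BALB/c mice that were inoculated through the teat canal with luciferase-expressing 4T1 or 66cl4 cells, 2 lines of BALB/c mammary carcinoma origin, so that each model rested on a single line. In both models the hosts were individually caged, lactating mothers mated as young adults, and more cells were inoculated for 66cl4 than for 4T1. Mice were left untreated or received anti-PD-1 alone (200 µg of an antibody derived from clone RMP1-14), chitin particles alone (1 mg) or the combination, all given intraperitoneally, and primary tumors were taken at 5 w post-inoculation. Anti-PD-1 blocks an inhibitory receptor on T cells, and chitin was given in the study as a blocker of chitinase-like proteins. The 8 model-by-treatment groups held 5 tumors each except untreated 4T1, in which tumor 3 was left out by the authors for RNA degradation, leaving 19 tumors of 4T1 and 20 of 66cl4. Cells were given into a pair of glands per mouse, and the labels do not tie tumors to mice, so that tumors of 1 group may share a mouse.

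Cathepsins are made as inactive precursors, carried to the lysosome largely by mannose-6-phosphate receptors and activated there at acidic pH. They fall into aspartic (Ctsd), serine (Ctsa) and cysteine proteases (the other members), some of which cut inside a protein chain while others trim its ends. In tumors they are made by cancer cells as well as by macrophages and fibroblasts, and they are known for protein turnover, antigen processing and, when secreted, breakdown of extracellular matrix. RNA levels do not measure their activity, which also depends on processing, pH and inhibitors.

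The table held variance-stabilized (VST) values, a log2-like scale on which a count of 0 lay at 6.05. The reads behind each value could be recovered, and these reads divided by the tumor's size factor are called normalized read counts below. Reads recovered on the genes of the table numbered between 5105898 and 14800352 per tumor (median, 6590274). Group medians were 8759930 in chitin-treated 4T1 and 10250227 in chitin-treated 66cl4 tumors against 6295440 and 6064018 in the untreated ones. Of 10 epithelial marker genes, 9 were lower in untreated 66cl4 than in untreated 4T1 tumors, where 28.7% of all genes were lower. The summed normalized read count of these markers was 21376 to 38628 in the 4T1 and 3400 to 5201 in the 66cl4 tumors, and Epcam, the epithelial adhesion molecule, averaged 4959 and 18.8. Bulk tumor RNA cannot tell fewer cells of a type from less RNA per cell, and the 2 models cannot be told apart from any batch in which their tumors were processed.

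The 9 genes lie on 6 mouse chromosomes in mm10 (GRCm38). Ctsa spans chr2:164832872-164841032 (+ strand) and Ctsz chr2:174427494-174439039 (− strand), Ctsk and its neighbor Ctss lie at chr3:95499210-95509387 and chr3:95526786-95556405 (both + strand), and Ctsc and Ctsd at chr7:88278024-88315861 (+) and chr7:142375910-142387827 (−). Ctsh lies at chr9:90054267-90076095 (+), Ctsl at chr13:64361890-64370772 (−) and Ctsb at chr14:63122462-63145923 (+). Counting by the authors took strand into account, which leaves 2 members that share exonic bases with another gene on their own strand. The longest overlap of single exons was 227 bases for Ctsd, with Gm49369, and 395 for Ctsl, with the processed pseudogene Gm49230. Reads of these stretches cannot be assigned to 1 gene with certainty, so the levels of Ctsd and Ctsl carry that uncertainty.

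RefSeq promoter windows, from 250 bases before to 50 bases after an annotated start on GRCm38.p6, were at hand for 7 of the 9 members. None was at hand for Ctsb and Ctsh, so neither could be searched for the motifs below. Those of Ctsa, Ctsd and Ctsl, which were higher in 66cl4 tumors (below), and of Ctss, which was not, are printed to show which of them hold the E-box core CACGTG, the core of the element bound by the lysosomal regulators Tfeb and Tfe3. Capitals mark CACGTG in the windows of Ctsa (its second annotated start, chr2:164833523-164833822, + strand), Ctsd (chr7:142387778-142388077, − strand) and Ctsl (chr13:64370471-64370770, − strand). In the window of Ctss (chr3:95526536-95526835, + strand) they mark 2 copies of GAAA with 2 bases between them, the core half-site of interferon regulatory factors in tandem.
Ctsa: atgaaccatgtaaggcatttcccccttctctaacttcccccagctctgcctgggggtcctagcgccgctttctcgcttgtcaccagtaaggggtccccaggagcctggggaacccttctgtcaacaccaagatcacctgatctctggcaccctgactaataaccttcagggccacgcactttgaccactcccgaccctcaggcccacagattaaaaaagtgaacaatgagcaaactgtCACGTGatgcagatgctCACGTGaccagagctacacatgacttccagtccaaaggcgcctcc
Ctsd: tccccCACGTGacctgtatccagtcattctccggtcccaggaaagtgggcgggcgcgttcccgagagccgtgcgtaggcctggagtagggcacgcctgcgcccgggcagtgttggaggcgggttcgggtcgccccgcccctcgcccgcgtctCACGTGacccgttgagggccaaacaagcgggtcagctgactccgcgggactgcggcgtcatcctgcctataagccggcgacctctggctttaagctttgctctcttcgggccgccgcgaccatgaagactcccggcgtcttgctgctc
Ctsl: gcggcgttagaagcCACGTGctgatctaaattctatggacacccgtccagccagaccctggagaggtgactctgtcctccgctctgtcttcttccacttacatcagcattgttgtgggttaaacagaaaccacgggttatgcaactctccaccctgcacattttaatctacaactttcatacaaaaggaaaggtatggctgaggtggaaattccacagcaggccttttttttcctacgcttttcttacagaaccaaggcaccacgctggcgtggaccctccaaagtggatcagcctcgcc
Ctss: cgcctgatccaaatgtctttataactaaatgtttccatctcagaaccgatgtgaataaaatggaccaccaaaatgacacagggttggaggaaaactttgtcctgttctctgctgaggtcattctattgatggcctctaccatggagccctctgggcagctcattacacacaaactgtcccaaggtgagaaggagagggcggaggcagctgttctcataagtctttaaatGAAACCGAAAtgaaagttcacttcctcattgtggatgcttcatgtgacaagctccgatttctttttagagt
CACGTG reads the same on both strands, and it stood at positions -12 to -7 and 5 to 10 of the Ctsa window, at -245 to -240 and -98 to -93 in Ctsd and at -236 to -231 in Ctsl, counted from the annotated start as 0. These letters were absent from the other Ctsa window and from those of Ctsc, Ctsk, Ctss and Ctsz. Among 32851 RefSeq mouse promoters of the same length, 7.15% held CACGTG, and 3.44% held the GAAA pair on either strand, which stood at -21 to -12 in Ctss. Both motifs were chosen after the sequences were seen, and a match describes letters, not a bound site.

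Of all reads on the 14318 genes of the table, the 9 members took 0.562 ± 0.0701% (SD, n = 4) in untreated 4T1 and 0.783 ± 0.0693% (n = 5) in untreated 66cl4 tumors. Among treated 4T1 groups this share was 0.662 ± 0.0991% after anti-PD-1, 0.492 ± 0.0713% after chitin and 0.527 ± 0.0693% after the combination, and in treated 66cl4 groups it lay between 0.786 ± 0.0783% and 0.814 ± 0.0337% (n = 5 each). Every 66cl4 group therefore had a larger mean share than any 4T1 group.

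Compared per kilobase of the principal transcript, the order of the members differed between the models. In untreated 4T1 tumors Ctsl (3919 normalized reads per kb) and Ctss (3872), the latter an endopeptidase of antigen-presenting cells, stood first, followed by Ctsz (2831), Ctsd (2748), Ctsb (2457), Ctsc (1701), Ctsh (1452), Ctsa (788) and Ctsk (273). In untreated 66cl4 tumors the order was Ctsl (6492), Ctsd (4869), Ctsb (4492), Ctss (2257), Ctsz (2144), Ctsa (1320), Ctsc (1154), Ctsh (247) and Ctsk (34.6). Ctsl and Ctss in 4T1 differed by far less than their spread between tumors. The first place of Ctsl also depends on the length used: over the union of all annotated exons it dropped to rank 5 in both models, and Ctss led in 4T1 and Ctsd in 66cl4. As a share of the summed reads per kb of the 9 genes, Ctsl made up 20.1 ± 8.41% in untreated 4T1 and 28.3 ± 1.60% in untreated 66cl4 tumors, Ctsb 12.2 ± 1.04% and 19.6 ± 0.939%, and Ctsh 7.28 ± 1.10% and 1.08 ± 0.235%. The mean share of Ctss lay between 17.1 ± 5.02% (combination) and 24.6 ± 3.61% (anti-PD-1) in the 4T1 groups and between 9.77 ± 1.15% (untreated) and 12.6 ± 1.45% (combination) in the 66cl4 groups. The 4T1 tumors given anti-PD-1 also had the lowest mean share of Ctsl among the 4T1 groups (12.3 ± 3.79%).

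**Figure D1:**
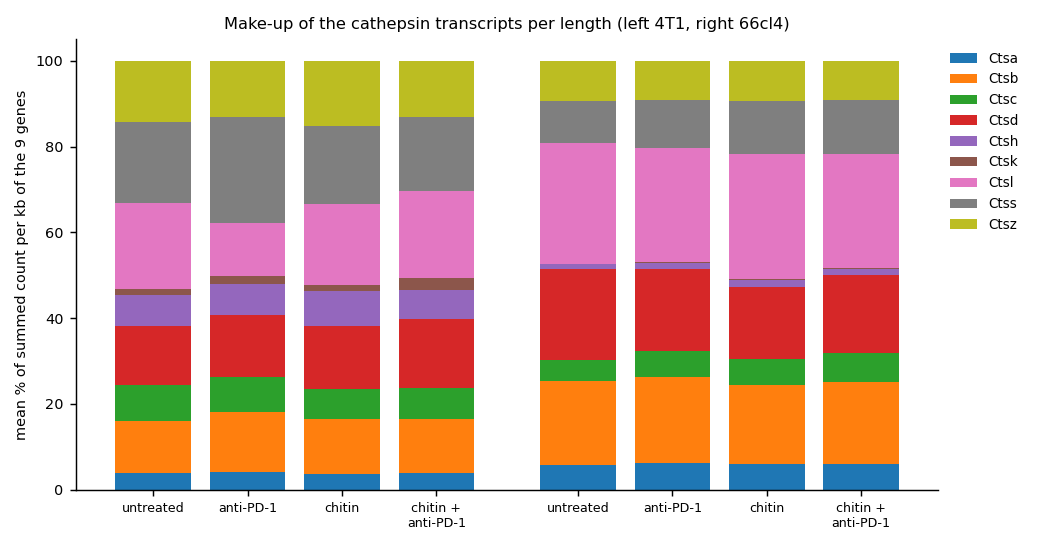
Stacked bars give the mean share (percent) that each of the 9 cathepsins took of their summed normalized reads per kilobase of principal transcript, for each of the 8 model-by-treatment groups (n = 4 untreated 4T1 tumors, n = 5 otherwise). Ctsl, Ctsd and Ctsb filled more of the 66cl4 bars, and Ctss, Ctsz and Ctsh more of the 4T1 bars.

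To see how the models differed before any therapy, untreated 66cl4 tumors were compared with untreated 4T1 tumors. All 9 cathepsins differed at an adjusted p under 0.05 (limma across all genes, Benjamini-Hochberg), 4 being higher in 66cl4 (Ctsa, Ctsb, Ctsd and Ctsl) and 5 lower (Ctsc, Ctsh, Ctsk, Ctss and Ctsz). The models differed widely: 55.8% of all 14318 genes were called in this comparison, 27.1% higher and 28.7% lower. The groups did not overlap for 7 of the 9 members, against 43.1% of all genes. The median difference of the members was -0.40 on the log2 scale of the VST values, beside -0.016 over all genes. The P values here and below measure the spread between tumors, and would be too small where tumors share a mouse.

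The members that were higher in 66cl4 included both proteases outside the cysteine family. Ctsd, an aspartic endopeptidase and the bulk protease of the lysosome, had normalized read counts of 4708, 5237, 7433 and 6005 in the untreated 4T1 tumors and of 9598, 10156, 11154, 8657 and 12220 in the untreated 66cl4 tumors. All 66cl4 tumors exceeded all 4T1 tumors, and the difference was 0.82 (SE 0.16, adjusted p = 5.85e-05 by limma), a fold of 1.77. With treatment, Ctsd averaged 6934 ± 1551 (anti-PD-1), 5434 ± 992 (chitin) and 6302 ± 1034 (combination) in 4T1 and 9179 ± 1419, 8620 ± 1601 and 9068 ± 917 in the same groups of 66cl4 (SD, n = 5). Ctsa is a serine carboxypeptidase that also protects beta-galactosidase and neuraminidase in the lysosome. Its counts were 2473, 2600, 3188 and 3235 in untreated 4T1 and 4245, 5102, 4319, 4966 and 5428 in untreated 66cl4 tumors, again without overlap (difference 0.72, SE 0.16, adjusted p = 0.000329, fold 1.65). Treated 4T1 groups averaged 3477 ± 756, 2348 ± 515 and 2614 ± 581 and treated 66cl4 groups 5019 ± 484, 5277 ± 847 and 5098 ± 420, in the same order of treatments.

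The cysteine endopeptidases did not move as one group. Ctsb, an abundant protease that can also act as a carboxypeptidase, had 10265, 9313, 13345 and 13686 normalized reads in untreated 4T1 and 19290, 21334, 21962, 20156 and 23784 in untreated 66cl4 tumors. This was the largest rise among the members (0.88, SE 0.14, adjusted p = 1.39e-06, fold 1.84). Ctsl, an endopeptidase of broad specificity, stood at 8466, 10181, 8343 and 3906 in 4T1 and at 11958, 11166, 13623, 13317 and 13917 in 66cl4 (difference 0.80, SE 0.24, adjusted p = 0.00504). The groups did not overlap, with the lowest value in 4T1 tumor 5, and without that tumor the difference was 0.50 with an adjusted p of 0.0647. Treated groups of Ctsb averaged 15041 ± 2608, 10582 ± 1930 and 11074 ± 1707 in 4T1 and 21663 ± 1781, 21006 ± 1505 and 21584 ± 782 in 66cl4 (anti-PD-1, chitin and combination, SD, n = 5 each). For Ctsl these means were 5349 ± 1148, 6229 ± 1966 and 7205 ± 1400 in 4T1 and 12072 ± 3505, 14016 ± 3674 and 12357 ± 1157 in 66cl4, so that each treated 66cl4 group lay above each treated 4T1 group for both genes.

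Ctss and Ctsk went the other way. Ctss, the endopeptidase that removes the invariant chain from MHC class II molecules and stays active at neutral pH, had 4180, 2957, 5790 and 8061 normalized reads in untreated 4T1 tumors and 2238, 2781, 3309, 3536 and 3431 in untreated 66cl4 tumors. The groups overlapped, and the difference of -0.68 (SE 0.27, adjusted p = 0.0321) lost its call without 4T1 tumor 4 (adjusted p = 0.0868) or 5 (0.185), without 66cl4 tumor 1 (0.0864) or 2 (0.0574), after quantile normalization (0.0743) and at equal read depth (0.0601). Ctsk is the collagen-cleaving protease of osteoclasts that activated fibroblasts also make. It was the least abundant member, with 294, 175, 511 and 671 reads in untreated 4T1 and 25, 20.6, 114, 36.1 and 65.4 in untreated 66cl4 tumors, which did not overlap. The difference was -1.74 on the VST scale (SE 0.44, adjusted p = 0.0012) and -3.06 on the scale of log2(normalized count + 1), since the VST compresses low counts. In treated tumors Ctss averaged 7637 ± 1856 (anti-PD-1), 4392 ± 1981 (chitin) and 4375 ± 1597 (combination) in 4T1 and 3459 ± 497, 4027 ± 243 and 4044 ± 574 in 66cl4. Ctsk averaged 660 ± 459, 349.7 ± 98.3 and 802 ± 780 in 4T1 and 90.1 ± 62.6, 83.2 ± 43.5 and 83.6 ± 19.9 in 66cl4, with values from 67.1 to 2047 in the 4T1 combination group.

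The 3 cysteine members that mainly trim chain ends were lower in untreated 66cl4 tumors. Ctsh, an aminopeptidase, showed the largest difference of the 9 on the VST scale, which compresses the low counts of Ctsk. Its counts were 2651, 1884, 2470 and 2384 in untreated 4T1 and 305, 438, 333, 516 and 403 in untreated 66cl4 tumors. No tumor of one model came near those of the other (difference -2.25, 95% confidence interval -2.57 to -1.93, adjusted p = 4.01e-14, fold 0.210 by the VST values). Mean counts in untreated 66cl4 and 4T1 tumors were 399 and 2347 for Ctsh, beside 52.3 and 413 for Ctsk. Ctsz, a carboxypeptidase also known as cathepsin X, had 3918, 3994, 4052 and 4356 reads in 4T1 and 2506, 2785, 3776, 3100 and 3277 in 66cl4. Its difference was the smallest of the 9 (-0.40, SE 0.11, adjusted p = 0.00322), although the groups did not overlap. Ctsc, the dipeptidyl peptidase that activates the granule serine proteases of neutrophils and cytotoxic lymphocytes, had 3428, 2896, 6101 and 4541 reads in 4T1 and 1810, 2667, 3599, 3318 and 2990 in 66cl4. These groups overlapped, and the difference of -0.52 (SE 0.21, adjusted p = 0.0358) was no longer called without either of 4T1 tumors 4 and 5 (adjusted p = 0.205 and 0.0886) or 66cl4 tumors 1 and 2 (0.139 and 0.0607), nor with the compared groups alone in the fit (0.079), quantile normalization (0.103), array weights (0.0508) or equal read depth (0.0891). Treated 4T1 groups averaged 2679 ± 102 (anti-PD-1), 2287 ± 479 (chitin) and 2039 ± 389 (combination) for Ctsh, and treated 66cl4 groups 518 ± 129, 588 ± 70.6 and 599 ± 160. Ctsz averaged 4280 ± 604, 3789 ± 449 and 3518 ± 459 in 4T1 and 2962 ± 436, 3256 ± 331 and 3065 ± 178 in 66cl4, a narrower gap than that of Ctsh. Ctsc averaged 4624 ± 679, 3029 ± 771 and 3385 ± 1154 in 4T1 and 3399 ± 567, 3668 ± 370 and 3954 ± 566 in 66cl4, so that the chitin-containing groups lay higher in 66cl4 and the others higher in 4T1.

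**Figure D2:**
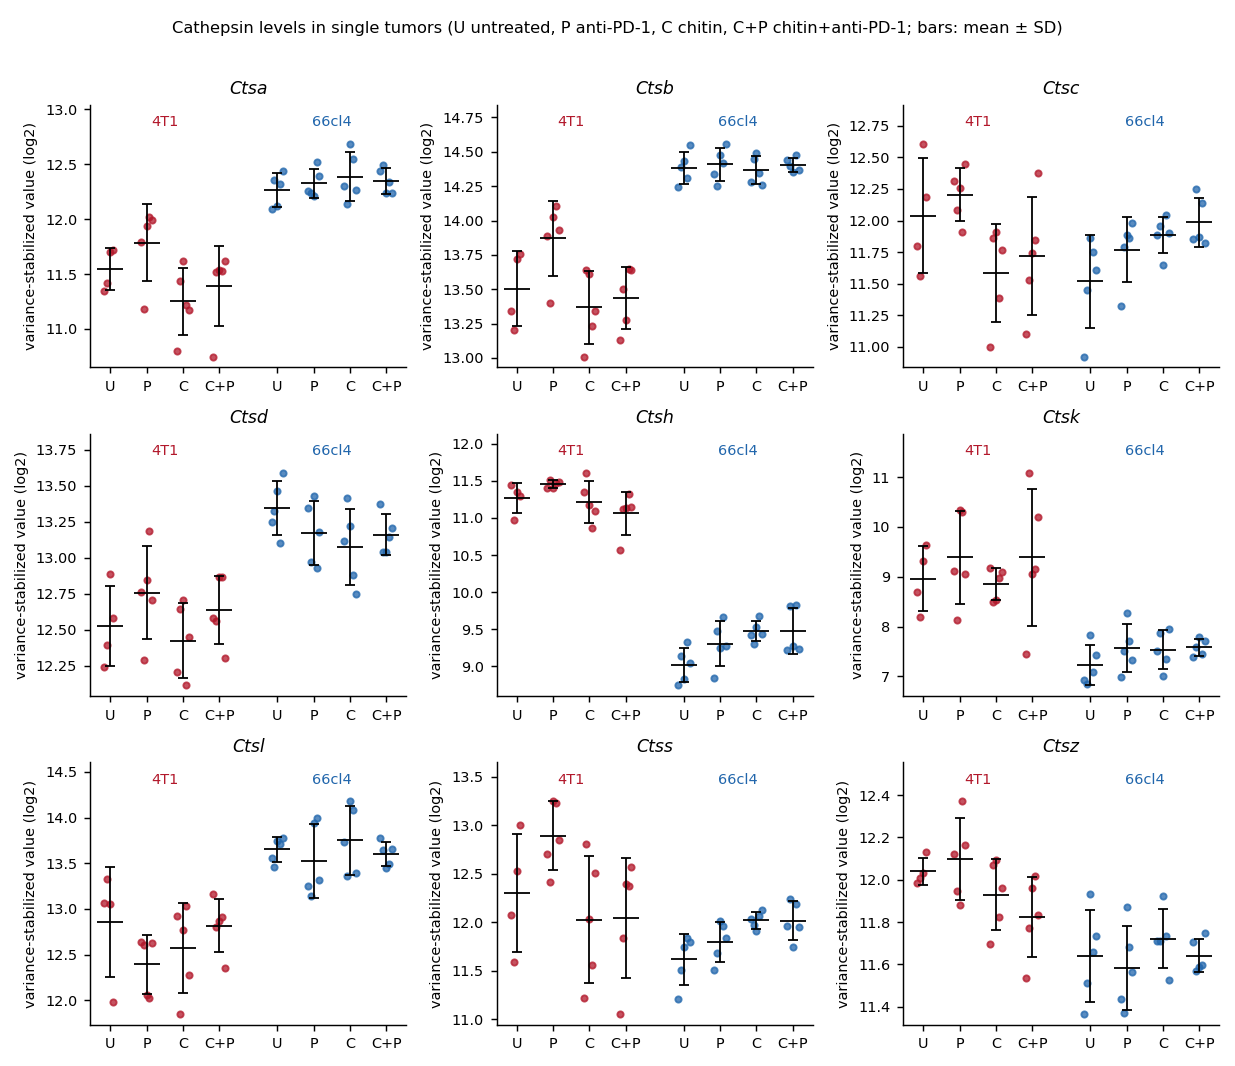
Points give the VST value (log2-like scale) of each cathepsin in each tumor, by model and treatment (U, untreated; P, anti-PD-1; C, chitin; C+P, combination), with the group mean ± SD. The 66cl4 tumors lie above the 4T1 tumors for Ctsa and Ctsb and below them for Ctsh, with no overlap in any of the 39 tumors.

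Over all 4 treatment groups, each given equal weight, 8 of the 9 cathepsins differed between the models (19 tumors of 4T1, 20 of 66cl4), where 78.8% of all genes were called (38.0% higher, 40.8% lower). Ctsa (0.84), Ctsb (0.85), Ctsd (0.60) and Ctsl (0.97) were higher in 66cl4 and Ctsh (-1.93), Ctsk (-1.67), Ctss (-0.45) and Ctsz (-0.33) lower, with adjusted p from 2.7e-22 (Ctsh) to 0.00202 (Ctss). Ctsc was the exception, at -0.097 (95% confidence interval -0.30 to 0.11, adjusted p = 0.378). Ctsa, Ctsb and Ctsh separated every tumor of one model from every tumor of the other, 3 of 9 members against 17.9% of all genes. Ordering the 8 group means of each gene placed the 4 groups of one model above the 4 groups of the other for Ctsa, Ctsb, Ctsd, Ctsh, Ctsk and Ctsl, with a step between the models that was larger than the pooled SD of the neighboring groups. For Ctss and Ctsz the step between neighbors at that border was within the SD, and the Ctsc groups of the 2 models were interleaved. The count of 8 stayed at 8 under every alternative run.

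**Figure D3:**
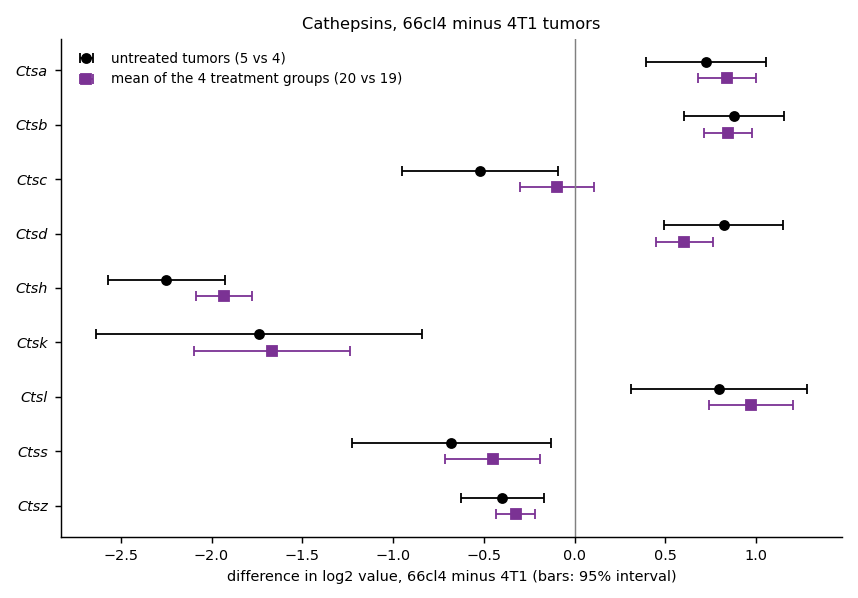
Points give the difference in VST value (log2 scale) between 66cl4 and 4T1 tumors for each cathepsin, in untreated tumors (5 against 4) and as the mean of the 4 treatment groups (20 against 19), with 95% confidence intervals from limma. Ctsb, Ctsl, Ctsd and Ctsa lie above 0, and Ctsh (-2.25 untreated) and Ctsk (-1.74) farthest below it.

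Lists of the rest of the lysosomal pathway also held genes on both sides, where 27.1% of all genes were higher and 28.7% lower in untreated 66cl4 tumors. Of the other cathepsins 2 of 4 measured were higher and 2 lower in untreated 66cl4 tumors, with Ctso rising by 0.65 (662 against 381 normalized reads, adjusted p = 1.15e-05) and Ctsw, a cathepsin of cytotoxic lymphocytes, lower (-0.40, 30.6 against 71.4, adjusted p = 0.0419). Among 6 measured cathepsin inhibitors 1 rose and 2 fell. Cst3 (cystatin C) was higher (0.74, 7921 against 4642, adjusted p = 0.00398) and Serpina3g, a serpin that inhibits cathepsin B, lower (-1.68, 56.6 against 439, adjusted p = 0.00023).

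Of 29 other soluble lysosomal enzymes and activators 11 rose and 4 fell in 66cl4. The tripeptidyl peptidase Tpp1 was higher by 1.26 (1684 against 637 reads, adjusted p = 1.61e-13) and the mannosidase Manba lower by 0.56 (difference -0.56, 235 against 398). The lists of 10 lysosomal membrane and transport genes (3 higher, 3 lower), 16 proton pump genes (4 and 4), 7 sorting genes (2 and 2) and 5 regulators (2 and 1) held both signs too. Such a split is what most gene lists would show, given the shares over all genes above. Npc1 (0.89) and Npc2 (-0.52), which pass cholesterol out of the lysosome together, went opposite ways, and so did the pump genes Atp6ap2 (0.77) and Atp6v1g1 (-0.57). Among sorting genes Grn (progranulin) was higher (0.63, 8326 against 5378 reads) and Igf2r, the mannose-6-phosphate receptor that carries many lysosomal enzymes, lower (-2.40, 300.1 against 2146, adjusted p = 7.72e-12). Of the regulators that bind CACGTG-containing elements, Tfe3 was higher (0.72, 656 against 356, adjusted p = 7.37e-08) and Tfeb lower (-0.35, 124 against 185, adjusted p = 0.00809).

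Of the antigen processing genes 7 of 8 were lower in untreated 66cl4 tumors, where 28.7% of all genes were lower, with a median difference of -2.45. H2-DMb1, a chain of the peptide-loading chaperone, had 33.7 against 601 reads (-2.37, adjusted p = 6.05e-09), while Ifi30, the lysosomal thiol reductase, did not pass the test (0.13, adjusted p = 0.609).

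Markers of the cell types that could supply cathepsin RNA also differed between the models. Of 11 macrophage markers 6 were higher and none lower in untreated 66cl4 tumors, where 27.1% of all genes were higher. Summed normalized reads of the list were 27982 to 41155 against 16278 to 26134 in 4T1, with the scavenger receptor genes Cd163 (2.85) and Mrc1 (2.68) in the lead. Of 10 fibroblast markers 2 rose and 5 fell (10067 to 19407 against 25796 to 95731), and of 3 measured osteoclast markers 2 fell, among them Acp5 (-2.33), while Dcstamp, Oscar and Calcr had no row in the table. Of 9 neutrophil markers 6 were lower and none higher in 66cl4, and of 8 dendritic cell markers 3 were lower, none was higher and 5 did not pass, where 28.7% of all genes were lower. The part of these markers in the cathepsin differences was not tested. All 11 macrophage and 10 fibroblast markers were present in the table.

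Chitin was compared with its absence within each model by setting the 2 chitin-containing groups against the untreated and anti-PD-1 groups. In 4T1 tumors no cathepsin passed the adjusted threshold, and neither did any of the 14318 genes by limma (0.0%) or by limma-voom on the recovered reads. At an unadjusted p under 0.05, 6 of 9 cathepsins were lower with chitin (Ctsa, Ctsb, Ctsc, Ctsh, Ctss and Ctsz), where 4.46% of all genes were lower and 7.28% differed in either direction. The median difference of the members was -0.22, beside 0.0040 over all genes. Ctss had normalized read counts of 2957 to 9585 (median, 6545) in the 9 tumors without chitin and 1996 to 7040 (median, 4614) in the 10 tumors with it. The ranges overlapped widely, and the difference was -0.56 (95% confidence interval -1.07 to -0.048, adjusted p = 0.662). Ctsc ranged from 2896 to 6101 (median, 4541) without and from 1916 to 5189 (median, 3327) with chitin, with 4 chitin tumors below all others (-0.47, interval -0.82 to -0.11, adjusted p = 0.589). For Ctsa the medians were 3235 and 2723 (-0.35) and for Ctsb 13686 and 10858 (-0.28), and Ctsh (-0.22) and Ctsz (-0.19) had smaller ones. Ctsl had the only positive difference (0.070), which turned to -0.077 without untreated tumor 5.

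Macrophage markers had the same sign in these tumors. Of 11 markers 10 had a negative difference with chitin and 8 an unadjusted p under 0.05, with a median of -0.61 and a smallest adjusted p of 0.580. Their summed reads ranged from 16278 to 26134 in untreated, 13997 to 35918 in anti-PD-1, 8276 to 25704 in chitin and 5588 to 23830 in combination-treated 4T1 tumors. Dendritic cell markers (6 of 8 at unadjusted p, median -0.40) and antigen processing genes (5 of 8, median -0.43) also had negative medians, and the part of these lists in the cathepsin values was not tested. Of the 29 other soluble lysosomal enzymes 8 had an unadjusted p under 0.05 (median -0.13).

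In 66cl4 tumors 7 of the 9 differences with chitin were positive. Again 0 of 9 cathepsins and 0 of 14318 genes were called by limma and by limma-voom, and at an unadjusted p under 0.05 the 3 members Ctsc, Ctsh and Ctss were higher, where 15.6% of all genes differed and 7.79% were higher. Ctss ranged from 2238 to 3993 (median, 3370) in the 10 tumors without chitin and from 3306 to 4702 (median, 3977) in the 10 with it, 5 of which exceeded all tumors without (0.31, interval 0.14 to 0.48, adjusted p = 0.121). Ctsh medians were 460 and 562 (0.32, adjusted p = 0.171) and Ctsc medians 3365 and 3673 (0.29, adjusted p = 0.194). The members' median difference was 0.085, beside 0.0026 over all genes, with Ctsd lowest (-0.14). Macrophage markers were positive for 9 of 11 (6 at unadjusted p, median 0.27, summed reads 27982 to 49180 without and 40912 to 51940 with chitin) and all 8 antigen processing genes had an unadjusted p under 0.05 (median 0.72). The deeper chitin libraries run alongside this comparison. At equal read depth 0 of 9 members and 0 of all genes were called, but the main fit called none either. The part of depth in these differences was not tested.

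The difference between the models in the effect of chitin was tested directly. None of the 9 cathepsins was called, against 14 of 14318 genes (0.0978%), while 6 had an unadjusted p under 0.05 and were all more positive in 66cl4 (13.2% of all genes differed and 7.66% were more positive; the median was 0.27 over the members and -0.0065 over all genes). The values were 0.87 for Ctss (interval 0.34 to 1.39, adjusted p = 0.105), 0.76 for Ctsc (0.35 to 1.17, 0.0791), 0.54 for Ctsh (0.23 to 0.84, 0.093), 0.42 for Ctsa (0.218), 0.27 for Ctsb (0.355) and 0.26 for Ctsz (0.283). Single tumors decided whether any member passed. Without 4T1 anti-PD-1 tumor 2 the 4 members Ctsa (adjusted p = 0.0368), Ctsc (0.0263), Ctsh (0.0432) and Ctss (0.0330) were called, without 4T1 chitin tumor 2 Ctsc, Ctsh and Ctss, without 4T1 combination tumor 5 Ctsc and Ctss, and without 4T1 untreated tumor 2 Ctsc. Macrophage markers showed the same sign (8 of 11 at unadjusted p, median 0.87), as did antigen processing genes (8 of 8, median 1.16). Their part in the cathepsin values was not tested.

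**Figure D4:**
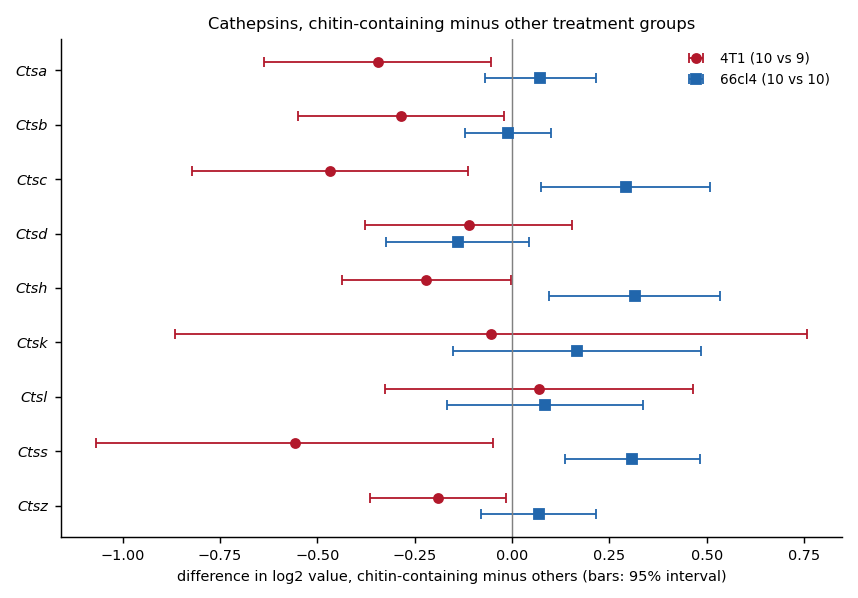
Points give the difference in VST value (log2 scale) between chitin-containing and other tumors for each cathepsin in 4T1 (10 against 9 tumors) and 66cl4 (10 against 10), with 95% confidence intervals from limma. Ctss, Ctsc and Ctsh lie below 0 in 4T1 (-0.56, -0.47 and -0.22) and above 0 in 66cl4 (0.31, 0.29 and 0.32), and no member passed the adjusted threshold in either model.

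In the comparisons of single groups no cathepsin passed the adjusted threshold, and limma and limma-voom called 0 of 14318 genes in each. They share the untreated or anti-PD-1 tumors with one another, so their values are not independent. Anti-PD-1 alone in 4T1 gave no unadjusted p under 0.05 for any member (8.89% of all genes), with Ctss highest (0.59, interval -0.15 to 1.33) and Ctsl lowest (-0.46). Anti-PD-1-treated 4T1 tumors had Ctss counts of 6545, 5332, 9585, 9466 and 7259 and Ctsb counts of 15032, 10700, 16527, 17487 and 15462, both with the highest mean of the 4T1 groups. Adipocyte markers stood out in the same tumors, with 5 of 6 at an unadjusted p under 0.05 and a median of 1.74, whose part was not tested. Chitin alone in 4T1 gave 9 negative differences, from -0.45 (Ctsc) to -0.047 (Ctsh), none with an unadjusted p under 0.05 (2.77% of all genes). The combination against untreated 4T1 ranged from -0.32 (Ctsc) to 0.42 (Ctsk), with 0 of 9 at unadjusted p (2.56%). Against chitin alone it ranged from -0.16 (Ctsh) to 0.53 (Ctsk), also with 0 of 9 (3.11%).

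Among the comparisons of single 4T1 groups, the combination against anti-PD-1 gave the most members an unadjusted p under 0.05, 4 of 9 and all lower (5.59% of all genes were lower, 9.13% in all). Ctss counts were 1996, 3529, 5256, 5158 and 5935 in the combination group (-0.84, interval -1.54 to -0.14, adjusted p = 0.453), with 4 combination tumors below all anti-PD-1 tumors. Ctsh had 2566, 2800, 2581, 2709 and 2741 reads with anti-PD-1 and 1390, 2102, 2121, 2440 and 2144 with the combination. It was the 1 member whose groups did not overlap (1.09% of all genes), at a difference of -0.39 (adjusted p = 0.422). Ctsb (-0.43) and Ctsz (-0.27) were the others. With array weights 4 members were called in this comparison, Ctsb and Ctsh among them, where the same weights raised the calls over all genes from 0 to 2127.

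In 66cl4 the single treatments gave small differences. Anti-PD-1 alone ranged from -0.18 (Ctsd) to 0.34 (Ctsk), with 0 of 9 members at unadjusted p (5.36% of all genes). Chitin alone gave 4 members an unadjusted p under 0.05 (11.4%). Ctss counts were 4066, 3887, 3704, 4138 and 4341 with chitin, all above the untreated tumors listed above (0.40, adjusted p = 0.226; 1.68% of all genes did not overlap). The others were Ctsh (0.46), Ctsc (0.37) and, with a negative sign, Ctsd (-0.27). The combination against untreated gave 3 such members (5.77% of all genes were higher, 10.6% in all), Ctsc (0.47), Ctsh (0.46) and Ctss (0.40), and against chitin alone none (3.07%), between -0.15 (Ctsl) and 0.10 (Ctsc). Against anti-PD-1 alone it ranged from -0.0094 (Ctsd) to 0.22 (Ctss), again with 0 of 9 (8.3%).

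Across the tumors of one model, the cathepsins were set beside the mean VST value of macrophage, neutrophil and fibroblast markers (9 genes, 3 lists and 2 models, 54 relations, permutation tests with 100000 resamples, adjusted by Benjamini-Hochberg). In the 19 4T1 tumors Ctsa (r = 0.96, rho = 0.93), Ctsb (0.92 and 0.93) and Ctss (0.90 and 0.89) ran closest with the macrophage markers, each at the smallest p that the permutations can give (1e-05, adjusted 9e-05). Leaving out the 2 tumors farthest from the median of the marker mean gave r = 0.93, 0.93 and 0.82. Ctsc followed (r = 0.84, rho = 0.78, adjusted p = 0.000202, without the 2 tumors 0.72). Ctsz (r = 0.72, rho = 0.63, adjusted p = 0.0033), Ctsh (0.61, 0.48, 0.026) and Ctsk (0.61, 0.62, 0.0256) were positive too, but they were no longer called without 2 tumors, when r was 0.48, 0.50 and 0.53 (adjusted p = 0.138, 0.122 and 0.106). Ctsh also lost its call within treatment groups (r = 0.50, adjusted p = 0.0932). Ctsd (r = 0.61, rho = 0.70, adjusted p = 0.0256) held without them (0.69) and not after treatment group means were subtracted (0.53, adjusted p = 0.0704). Ctsl was the 1 member that ran against the macrophage markers (r = -0.59, rho = -0.61, adjusted p = 0.0304), which was not called without the 2 tumors either (-0.53, adjusted p = 0.106). Within treatment groups Ctsl (r = -0.61, adjusted p = 0.0255), Ctsz (0.69, 0.0063) and Ctsk (0.65, 0.0137) kept their calls.

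In the 20 66cl4 tumors Ctsc (r = 0.87, rho = 0.77), Ctsh (0.87 and 0.86) and Ctss (0.82 and 0.72) ran with the macrophage markers (adjusted p = 9e-05, 9e-05 and 0.000154) and did so without 2 tumors (0.73, 0.82 and 0.65). Within treatment groups r was 0.80, 0.79 and 0.71 for them, and 0.94, 0.90 and 0.86 for Ctsa, Ctsb and Ctss in 4T1. Ctsa was weaker in 66cl4 (r = 0.55, rho = 0.60, adjusted p = 0.0463; 0.38 without 2 tumors, adjusted p = 0.246, and 0.51 within treatment groups, adjusted p = 0.0704). Ctsb (0.27), Ctsk (0.24), Ctsz (0.10) and Ctsl (0.047) did not pass, nor did the r of Ctsd (-0.52, adjusted p = 0.0648), whose rho of -0.68 did (adjusted p = 0.0074) and whose r passed without 2 tumors (-0.61, adjusted p = 0.0372). With fibroblast markers 2 members passed in 4T1, Ctsk (r = 0.94, rho = 0.92, adjusted p = 9e-05; 0.93 without 2 tumors) and Ctsa (r = 0.62, rho = 0.56, adjusted p = 0.0256), whose call was lost without 2 tumors (0.38, adjusted p = 0.272) and held within treatment groups (0.70, adjusted p = 0.00632). Ctsb was at 0.54 (adjusted p = 0.0583) and passed within treatment groups (0.61, adjusted p = 0.0183). In 66cl4 the relation was 0.37 for Ctsk (rho = 0.40, adjusted p = 0.262), and the difference between the models was not tested. No cathepsin passed with neutrophil markers in either model, Ctsc included, but in 4T1 the r values depended on 2 tumors. Without them r went from 0.024 to 0.58 for Ctsa (adjusted permutation p = 0.0707) and from 0.17 to 0.55 for Ctsb (0.091). For Ctsc it went from 0.031 to 0.52 (0.113), while Ctsh (-0.038) and Ctsl (-0.32) were negative, and still no member was called.

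**Figure D5:**
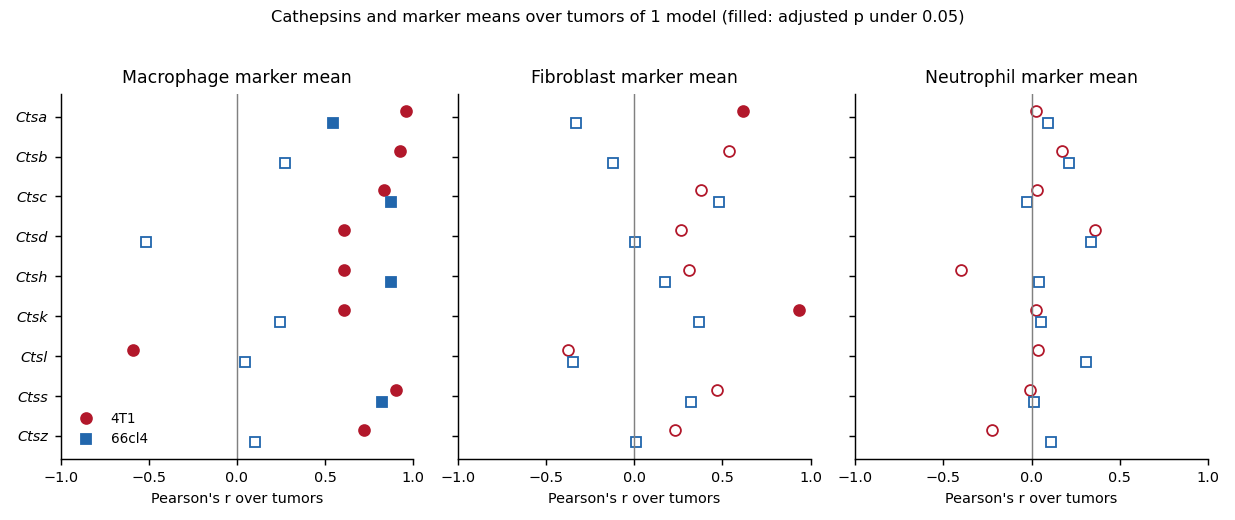
Points give Pearson's r over tumors between each cathepsin and the mean VST value of macrophage, fibroblast and neutrophil markers, in 4T1 (19 tumors) and 66cl4 (20 tumors), filled where the adjusted permutation p was under 0.05. Ctsa, Ctsb and Ctss reach 0.90 or more with macrophage markers in 4T1, Ctsk reaches 0.94 with fibroblast markers there, and Ctsl is at -0.59.

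Among themselves the cathepsins had a median pairwise correlation over 36 pairs of 0.56 (-0.79 to 0.91) in 4T1 and of 0.29 (-0.63 to 0.90) in 66cl4 tumors, a difference that was not tested. Of 72 such relations, 19 positive and 3 negative in 4T1 and 10 positive and 1 negative in 66cl4 had an adjusted permutation p under 0.05. Ctsa and Ctsb were the closest pair in 4T1 (r = 0.91, rho = 0.90, adjusted p = 0.00024; 0.89 without 2 tumors), and Ctsc and Ctss in 66cl4 (r = 0.90, rho = 0.80, adjusted p = 0.00024; 0.78). Ctsl ran against Ctss in 4T1 (r = -0.79, rho = -0.81, adjusted p = 0.00104; -0.78 without 2 tumors), while in 66cl4 it did not pass (r = 0.32, rho = 0.31, adjusted p = 0.246; the difference was not tested). Ctsl and Ctsz ran together in 66cl4 (r = 0.75, rho = 0.75, adjusted p = 0.00105; 0.63). Ctsd and Ctsh ran against each other there (r = -0.63, rho = -0.73, adjusted p = 0.012; -0.67).

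The genes most like each member, by the smaller of the 2 within-model correlations among 14250 other genes, are given as a description without a test. For Ctss this was Vav1 (r = 0.94 in 4T1 and 0.93 in 66cl4), a signaling protein of hematopoietic cells, for Ctsc Pld4 (0.88 and 0.90), for Ctsb Cd68 (0.79 and 0.81) and for Ctsa Zfp385a (0.94 and 0.87). Cd68 is 1 of the 11 macrophage markers, whose mean did not pass with Ctsb in 66cl4 (r = 0.27, adjusted permutation p = 0.432). Ctsk was most like Cpxm1 (0.86 and 0.82), Ctsz like Cotl1 (0.83 and 0.85) and Ctsl like Rtn4 (0.86 and 0.72). Ctsh was most like Ppfia4 (0.75 and 0.84) and Ctsd like B430306N03Rik (0.77 and 0.77). The mean of the 9 members, each scaled within a model, was most like Lrrc25 (0.89 and 0.90), Spi1 (0.92 and 0.88), which encodes the myeloid transcription factor PU.1, and Coro1a (0.87 and 0.89).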

How the data were processed

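Primary tumors were profiled by RNA sequencing. According to the study's methods and labels, stranded libraries from 250 ng of total RNA were sequenced as paired 150-base reads and aligned with HISAT2 to mm10, and reads per gene were counted with strand considered. The authors required over 10 reads in 10% of cases or more for a gene, and deposited variance-stabilized values on a log2 scale. Each of the 14318 genes in the table had over 10 reads in 8 or more tumors. The paper gives a slightly smaller number of genes after its filter, a gap that its methods do not explain. Versions and the gene annotation are not given in the sources used here. The files hold 39 of the 40 labelled tumors.

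Reads were recovered by inverting the transformation, and 100.0% of values came out whole within 0.001. The values were tested with limma 3.58.1 (R 4.3.3) with a mean-variance trend, Benjamini-Hochberg adjusted over 14318 genes at 0.05. Treatments were fitted within a model (4 groups), and models and the difference in chitin effect over 8 groups. Voom on recovered reads was an alternative. Correlations used 100000 permutations. Gene positions came from the GRCm38 annotation. Scripts were tested on simulated data.

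Named were all 9 members, per pathway list the genes with the smallest p among those higher in untreated 66cl4 and among those higher in untreated 4T1, and the most similar genes. The members and lists were chosen with earlier results of these data known. Epcam, Acp5, Cd163 and Mrc1 were chosen after their values were seen. Alternatives changed the filter, scaling, weights, trend, depth, tumors and samples in the fit.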

Additional observations from a re-analysis of the deposited data

Results flagged for a closer look

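Among the 72 sets of tumors formed by 9 cathepsins in 8 groups, 3 held a tumor that stood apart from the others of its group by Dixon's ratio of gap to range, where chance alone would give 3.6 (1 in 20). All were low values in 2 4T1 tumors. The VST value of Ctsa in 4T1 anti-PD-1 tumor 2 was 11.18, against 11.79 to 12.02 in the other 4 tumors (gap over range 0.719). In 4T1 chitin+anti-PD-1 tumor 1, Ctsa was at 10.75 against 11.52 to 11.62 (0.881) and Ctsh at 10.57 against 11.12 to 11.33 (0.732).

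Both tumors were also the lowest of their group in macrophage markers, with a mean VST value of 9.66 against 10.79 or more in the other anti-PD-1 tumors and of 8.75 against 10.05 or more in the other combination tumors. Fibroblast markers were lowest there too, at 9.70 against 10.95 or more and at 8.80 against 10.82 or more. Neutrophil markers were not: combination tumor 1 had the highest mean of its group (9.46, the others 8.31 to 9.05), and anti-PD-1 tumor 2 (8.31) lay within 8.25 to 8.67. Their part in the low cathepsin values was not tested. The recovered reads of these tumors were 6164483 and 9908975, within the range of the series.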

How the results depend on the processing

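Recomputed differences covered all 9 members in the comparisons of the models. In the other comparisons they covered only members with an unadjusted p under 0.05 and those with the lowest and highest difference. Other members, with smaller differences, were left out of the counts that follow. Of 675 recomputed cathepsin differences under other settings, 656 kept their direction and their side of the threshold, 6 lost a call, 8 gained one and 5 changed sign. With 1 tumor left out, 1147 of 1182 did so, 9 lost a call, 10 gained one and 16 changed sign. The causes were not tested unless stated.

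The count of cathepsins called for the difference in chitin effect (0) became 2 with array weights and 1 with a replicate block, and it ranged from 0 to 4 when 1 tumor was left out. It was 3 without the 2 4T1 tumors with low cathepsin values together (Ctsa, Ctsc and Ctss), an alternative chosen after seeing the data. The combination against anti-PD-1 in 4T1 went from 0 to 4 with array weights. In untreated tumors the count of 9 was 7 after quantile normalization and at equal read depth, 8 with array weights or the compared groups alone in the fit, and 6 to 9 with 1 tumor left out, 6 being without 4T1 tumor 5. Of the 54 marker relations, the 15 called kept their direction, and 6 lost their call without 2 tumors and 3 within treatment groups, as given above. Of those not called, 11 and 7 changed sign, the largest r among them being 0.31.

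Sign changes concerned values near 0, except for Ctsk in the 4T1 combination against untreated. Ctsd for the difference in chitin effect (-0.028) was 0.060 after quantile normalization, 0.023 without both low 4T1 tumors and -0.088 to 0.030 with 1 tumor left out. Ctsd for the combination against anti-PD-1 in 66cl4 (-0.0094) was 0.010 after quantile normalization, 0.0022 with array weights, 0.010 at equal depth and -0.070 to 0.054 with 1 left out. With 1 tumor left out, Ctsl for chitin in 4T1 (0.070) ranged from -0.077 to 0.16 and Ctsh for chitin alone in 4T1 from -0.15 to 0.042. Ctsk for the 4T1 combination against untreated (0.42, the highest of the 9 members there) ranged from -0.0015 to 0.91.

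Calls over all genes moved more. Main counts were 0, except 14 for the difference in chitin effect. With array weights they were 1004 for that difference, 960 and 2127 for 4T1 anti-PD-1 against untreated and against the combination, 297 and 185 for chitin in 4T1 and 66cl4, and 2 for the 66cl4 combination against anti-PD-1. With both models in 1 fit they were 58, 60, 3, 5 and 294 in the 4T1 comparisons (chitin, anti-PD-1, and the combination against untreated, chitin and anti-PD-1) and 1 each for 66cl4 chitin and the 66cl4 combination against anti-PD-1. For the difference in chitin effect, quantile normalization gave 39, leaving out the lowest 25% of genes 8, equal depth 0, leaving out both low tumors 501, and leaving out 1 tumor 0 to 677 (677 without 4T1 anti-PD-1 tumor 2, 282 without 4T1 combination tumor 5, 183 without 4T1 chitin tumor 2). Without 4T1 anti-PD-1 tumor 2 the counts were 202 for the combination against anti-PD-1 and 80 for anti-PD-1 against untreated, and without both low tumors they were 19 and 283. Chitin in 66cl4 rose to 269 without untreated tumor 3.

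Same-numbered tumors of different treatments deviated together with a median r of -0.017 in 4T1 (27 pairs, 11 over 0.1). In 66cl4 this median was 0.026 (30 pairs, 11 over 0.1). Tumors with different numbers gave medians of 0.0040 in 4T1 (108 pairs, 32 over 0.1) and -0.014 in 66cl4 (120 pairs, 31 over 0.1). Values over 0.1 thus took a larger share of the same-numbered pairs in each model, while the medians differed little. Whether the tumor numbers in the labels pair the samples was not tested. With the number as a replicate block Ctsc was called for the difference in chitin effect (0.77, adjusted p = 0.0379), and over all genes the counts were 104 for that difference and 16 for chitin in 66cl4. It changed no other cathepsin call.

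Depth and number limit these data. Ctsk in 66cl4 rested on few reads, groups of 4 or 5 tumors left wide intervals, and a value that misses the threshold is not shown to be equal.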
